A study of Mus musculus with 16 samples.

Results

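The ribosome occupancy of mRNAs was examined in the lumbar spinal cord of sham-operated mice. The 10440 genes were ranked from the highest to the lowest ratio of ribosome footprints to mRNA. A gene entered the ranking when the authors' table called it protein coding and it averaged at least 64 reads in the 2 footprint libraries and at least 64 in the 2 mRNA libraries of sham cord. These were 10440 of 22040 protein-coding genes and of 53465 genes in the whole table. Of the other protein-coding genes, 9365 were under the minimum in both assays, 2195 in the footprints alone and 40 in the mRNA alone, so the minimum removed more genes with few footprints than genes with little mRNA. Genes were ranked by the log2 ratio of footprint to mRNA reads, each scaled to its library size with 0.5 reads added and averaged over the 2 lysates. Each lysate pooled the dorsal part of the lumbar cord of 10 mice (C57BL/6J, female). The mice had bilateral surgery at 8 weeks of age, and the tissue was taken on day 30 after it. In sham surgery the sciatic nerve was exposed and left intact. Each lysate was divided for ribosome footprints (mRNA fragments protected from RNase I by a ribosome) and for poly(A)-selected mRNA, which was fragmented by alkali to a like size. The same order was then looked up in other libraries, also of 2 pools each: cord of mice with spared nerve injury (SNI), in which the tibial and peroneal nerves are tied and cut while the sural nerve is spared, and the dorsal root ganglia (DRG) of the sham mice.

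A ribosome that moves along an mRNA covers a short stretch of it, and the number of such stretches recovered per mRNA is read as translational efficiency. Initiation is usually the slow step. It is known to be slowed by structure or by short open reading frames in the 5′ untranslated region (UTR), by proteins that bind near the cap, and, for mRNAs with a 5′ terminal oligopyrimidine (TOP) tract, by low mTORC1 activity. Elongation and termination signals, such as selenocysteine codons and frameshift sites, change the occupancy further. In sham cord the 7 neuronal, 4 astrocyte, 4 oligodendrocyte and 4 microglial markers all had at least 100 mRNA reads. The 8 markers of primary sensory neurons summed to 65.8 and 68.4 mRNA CPM (counts per 1000000 reads in genes) in sham cord, against 5630.5 and 5625.1 in sham DRG. Markers of other cells were also read in sham cord: 3 of Schwann cells summed to 839 and 856 CPM (1850 and 1852 in sham DRG). The 4 erythroid markers summed to 275 and 287 CPM (1686 and 1722 in sham DRG).

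The 4 sham cord libraries held 7214309 and 10688450 reads in genes for footprints, against 27233473 and 22405013 for mRNA, and the ranked genes took 96.3% and 95.4% of them. The log2 ratio ranged from -5.35 to 5.15 with a median of -0.14. The 25th and 75th percentiles were -0.67 and 0.39, and the 5th and 95th were -1.54 and 1.08, a 6.14-fold range in occupancy. The pair of lysates gave nearly the same order, with a Pearson correlation of 0.980 and a Spearman correlation of 0.976 across genes, which are not independent replicates. They differed by a median of 0.09 on the log2 scale. This difference was 0.16 for the 25% of genes with at most 320 footprint reads and 0.05 for the 25% with 1437 or more, so the deeper genes are placed more firmly. Of the highest 200 genes in lysate 1, 172 were also among the highest 200 in lysate 2, and the same number was shared at the low end.

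In edgeR's quasi-likelihood test with the lysate as a block, 656 genes (6.28% of those tested) had at least 2-fold more footprints than mRNA at an adjusted p under 0.05, and 1478 (14.2%) had at least 2-fold fewer. These are called over and under in the following. Such ratios are relative to the library totals. With TMM scaling, which moves the median of all ranked genes by 0.12 on the log2 scale, 888 were over and 1193 under, so the share of calls that were over was 42.7% in place of 30.7%. With the lysate as a block, the ratio varied little between the 2 pools (common biological coefficient of variation 0.0159), and 8935 genes passed the adjusted p alone. The size of the ratio is therefore given before its p throughout, and p-values measure only the spread between these 2 pools of mice.

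**Figure D1:**
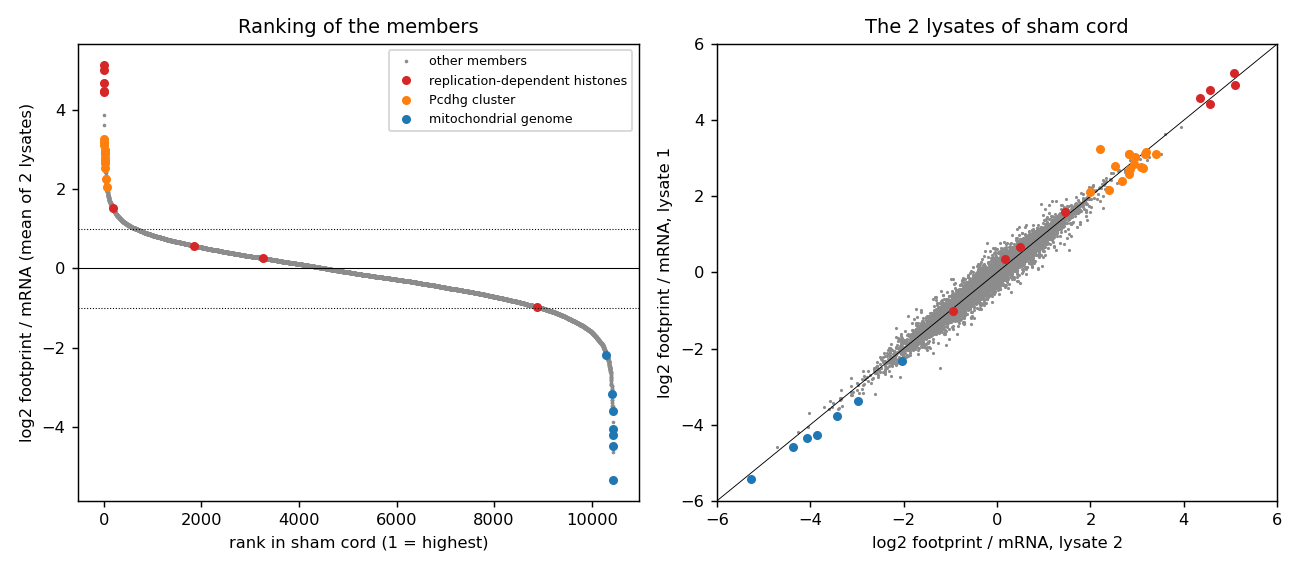
Left: log2 footprint over mRNA ratio of each of the 10440 genes (mean of 2 lysates) against its rank, with lines at a ratio of 1 and at 2-fold. Right: lysate 1 against lysate 2, with the line of equality; 5 of 9 replication-dependent histones and the Pcdhg cluster sit at the high end and the genes of the mitochondrial genome at the low end in both lysates.

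The highest ratios belonged to replication-dependent histones, which package new DNA. Their mRNAs are known to end in a conserved stem-loop in place of a poly(A) tail, so that the poly(A) selection used for the mRNA libraries takes few of them. Hist1h4c, a histone H4 gene (chr13:23697635-23698454 of GRCm38, minus strand), had 95.4 and 95.6 footprint CPM against 2.53 and 2.81 mRNA CPM, and ranked highest of all with 5.15 ± 0.10 (SD, n = 2 lysates). Hist1h1e, a linker histone, had 111 and 119.8 footprint CPM against 3.64 and 3.48 mRNA CPM and a log2 ratio of 5.01 ± 0.12. The mean ratios correspond to 35.5-fold and 32.2-fold more footprints than mRNA. The ratios of Hist1h4h, Hist1h4d and Hist2h4, also H4 genes, were 4.68, 4.49 and 4.47. Below these 5 came Hist1h1c (1.52), Hist3h2ba (0.57), Hist1h2be (0.26) and Hist1h2bc (-0.98). Hist1h1c had 709 and 1017 footprint reads against 899 and 774 mRNA reads, and Hist1h2bc had 120 and 194 footprint reads against 915 and 783 mRNA reads. Hist1h2be had 57 and 84 footprint reads against 171 and 156 mRNA reads. The coding sequences of several of them are shared with other histone genes (for Hist1h2bc, 0% of 30-base windows occur in no other annotated gene), so reads cannot be assigned with certainty within the family. The annotated gene of Hist1h2be also overlaps one end of Hist1h1e on the same strand.

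The stem-loop was searched in the annotated 3′ UTRs as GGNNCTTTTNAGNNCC on the transcript strand. It was present in 8 of the 9 histone members and in 20 of all 10327 ranked genes with a 3′ UTR long enough (0.194%). It lay 24 to 40 bases after the stop codon in these 8, and the annotated transcripts run on for 46 to 1861 bases beyond it. The match is shown in capitals with 5 bases on each side, 5′ to 3′ (GENCODE M21, GRCm38), to set the 5 genes of the highest ratios against the other 3.
Hist1h4c (chr13:23697635-23698454, minus strand): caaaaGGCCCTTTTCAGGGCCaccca
Hist1h1e (chr13:23620629-23622558, minus strand): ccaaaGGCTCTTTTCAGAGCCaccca
Hist1h4h (chr13:23531050-23531519, plus strand): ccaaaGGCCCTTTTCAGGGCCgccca
Hist1h4d (chr13:23581598-23582735, plus strand): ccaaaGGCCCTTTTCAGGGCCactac
Hist2h4 (chr3:96261682-96263311, minus strand): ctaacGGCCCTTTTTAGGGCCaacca
Hist1h1c (chr13:23738808-23740367, plus strand): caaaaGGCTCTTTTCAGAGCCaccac
Hist3h2ba (chr11:58948920-58949533, plus strand): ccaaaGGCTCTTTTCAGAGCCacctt
Hist1h2be (chr13:23583670-23621124, minus strand): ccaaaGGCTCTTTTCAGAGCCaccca
The motif was thus present in members of high and of lower ratios.

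Next to the histones stood single genes for membrane and signalling proteins. Slc9a7, a sodium/proton exchanger of the trans-Golgi network, had 199 and 208 footprint CPM against 14.1 and 13.6 mRNA CPM and a log2 ratio of 3.87 ± 0.08. Kcnk9, the acid-sensitive background potassium channel TASK-3, had 139 and 140.2 footprint CPM against 11.1 and 11.5 mRNA CPM and 3.62 ± 0.03. Both are far above the 95th percentile of 1.08. Gucy1a2, a subunit of the nitric oxide receptor guanylate cyclase, had 83.9 and 83.5 footprint CPM against 9.62 and 7.28 mRNA CPM, so the mRNA libraries differed more than the footprints did (log2 ratio 3.32 ± 0.28). Aff2 (3.14 ± 0.15), a nuclear protein linked to transcriptional elongation, Adamts15 (3.08 ± 0.17), a matrix metalloprotease, and Ctnna3 (3.02 ± 0.05), an alpha-catenin of cell adhesion, completed the 15 highest together with 4 protocadherins of the Pcdhg cluster.

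The Pcdhg genes encode adhesion proteins that give neurons their surface identity. Each has its own first exon and shares the last exons with the rest of the cluster. All 16 that entered the ranking were over, with a median log2 ratio of 2.91 and a lowest of 2.05. Pcdhgb7 had 225 and 363 footprint reads against 98 and 71 mRNA reads, Pcdhga2 had 228 and 382 footprint reads against 95 and 87 mRNA reads and Pcdhga3 had 246 and 348 footprint reads against 108 and 81 mRNA reads. Reads in the shared exons belong to no single gene, and over the 16 members the median share of unique coding windows was 74.6%. For Pcdhgb7, Pcdhga2 and Pcdhga3 it was 52.1%, 83.4% and 81.4%, against 0% of the windows in the annotated 3′ UTR of each. The part of these shared 3′ UTRs in the high ratios was not tested. Of the neighbouring clusters, the 3 ranked Pcdha genes were all over (median 1.79) and 6 of the 15 Pcdhb genes, which have no shared exons, were over (median 0.71). These families were chosen after their values were seen.

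Among the 5528 genes with at least 2000 mRNA reads, where both assays are well sampled, the 15 highest encode proteins of several kinds. Fn1, fibronectin, had 292 and 279.9 footprint CPM against 47.9 and 50.0 mRNA CPM (log2 ratio 2.55 ± 0.09), and Col1a1, the main chain of type I collagen, had 558 and 559 footprint CPM against 104 and 103 mRNA CPM (2.43 ± 0.01). Footprints stood above mRNA by 5.84-fold and 5.39-fold. Usp9x, a deubiquitinase, had 493 and 487 footprint CPM against 90.4 and 90.4 mRNA CPM (2.44 ± 0.01). Atp2b3, the plasma membrane calcium pump of neurons, reached 2.33 ± 0.05, and Glra1, the alpha 1 subunit of the glycine receptor that carries fast inhibition in the cord, had 556 and 565 footprint CPM against 142 and 144 mRNA CPM (1.97 ± 0.01). The most deeply sequenced of those named here was clathrin heavy chain (Cltc), with 2045 and 2044 footprint CPM against 541 and 525 mRNA CPM and a log2 ratio of 1.92 and 1.96. The splicing factor Prpf8 (1.95), the lipoprotein receptor Lrp1 (1.85), reelin (Reln, 1.92), the cadherin Cdh2 (2.11), Ncam2 (2.14), the axon guidance ligand Slit1 (2.11), Heatr5b (2.03) and the channel Trpm3 (1.86) were also among the 15. Trpm3 was the least settled of them, with 1.72 and 2.00 in the lysates. With the coding share taken into account, all genes named here stayed above the median gene, from 0.89 for Trpm3 to 2.32 for Ncam2. Their order changed. Trpm3, whose annotated transcript is 99.5% coding, went from rank 87 to 1343, Lrp1 from 91 to 1066 and Prpf8 from 73 to 932. Ncam2 went only from rank 55 to 69.

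**Figure D2:**
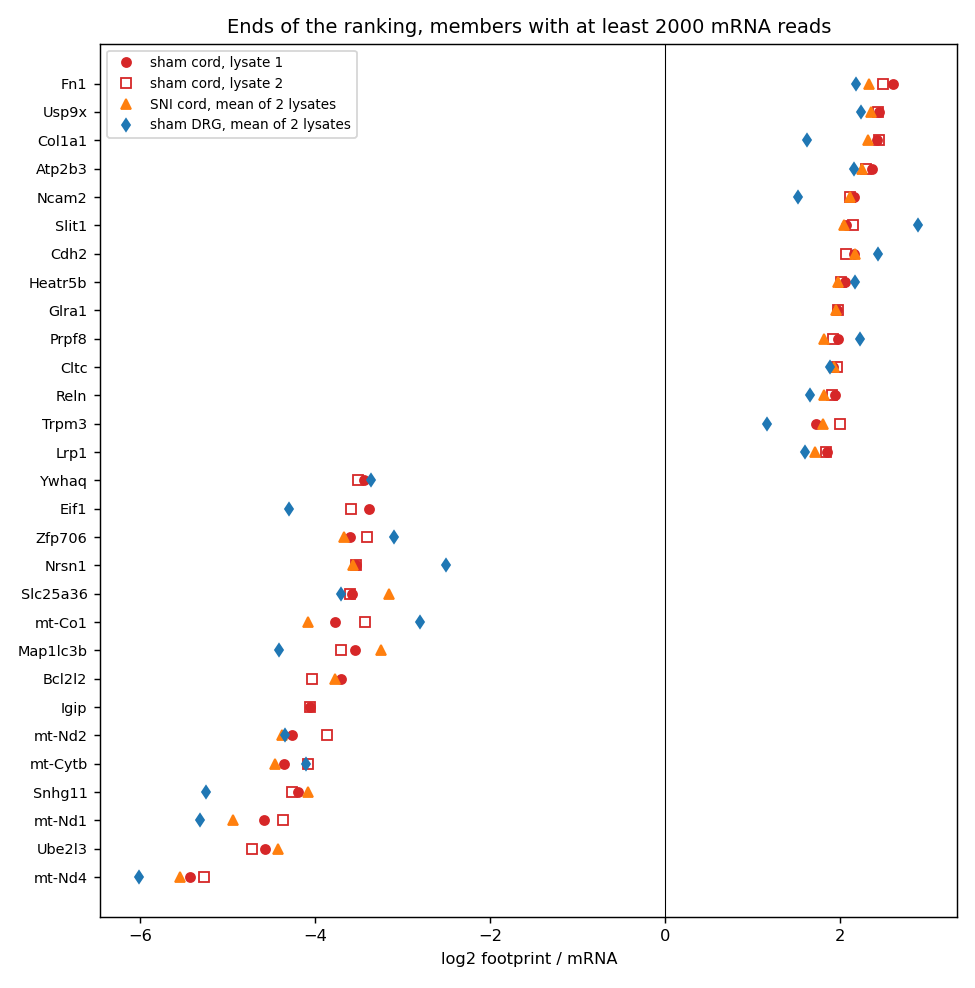
Log2 footprint over mRNA ratio of 14 of the 15 highest and of the 15 lowest ranked genes with at least 2000 mRNA reads. Circles and open squares are lysates 1 and 2 of sham cord, triangles the mean of 2 SNI cord lysates and diamonds the mean of 2 sham DRG lysates, left out where the gene had too few reads there; the lysates of sham cord differ by at most 0.40 for any of these genes, and the 14 high genes all lie above zero and the 15 low genes all below it.

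At the other end stood the genes of the mitochondrial genome, which encode core subunits of the respiratory chain and are translated inside mitochondria by a separate ribosome. All 7 that entered the ranking were under, from -5.35 to -2.19. mt-Nd4 was the lowest of all genes, with 82.6 and 95.1 footprint CPM against 3564 and 3661 mRNA CPM and a log2 ratio of -5.35 ± 0.12. mt-Cytb, which had more mRNA reads than any other member, had 365 and 443 footprint CPM against 7466 and 7473 mRNA CPM, which is 18.6 times fewer footprints (-4.22 ± 0.20). mt-Nd1, mt-Nd2 and mt-Co1 had -4.48, -4.07 and -3.61, and mt-Nd6, the only one on the other strand, had -2.19. For all 7 the ratio was lower in lysate 1 than in lysate 2. All mitochondrial transcripts together took 0.198% and 0.240% of footprint reads, against 2.91% and 2.88% of mRNA reads. Whether footprints of mitochondrial ribosomes pass the sucrose cushion and size selection like those of cytosolic ones was not tested.

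The lowest nuclear gene was Ube2l3, a ubiquitin-conjugating enzyme, with 8.04 and 7.20 footprint CPM against 193 and 191 mRNA CPM and -4.65 ± 0.10. Its coding sequence has no 30-base window that is absent from other annotated genes (0% unique), and the unique share was also low for several neighbours: Map1lc3b, the autophagosome protein LC3B (-3.62 ± 0.11, 0% unique), Ywhaq, a 14-3-3 protein (-3.48 ± 0.05, 0.282%), the initiation factor Eif1 (-3.48 ± 0.15, 1.92%), Zfp706 (-3.51 ± 0.13, 0.990%), Slc25a36 (-3.59 ± 0.02, 21.4%) and the apoptosis regulator Bcl2l2 (-3.87 ± 0.24, 26.9%). Footprints lie in the coding sequence and mRNA reads also in the UTRs, and the study kept uniquely mapped reads. Over all members the 534 genes (5.11%) with under 50% unique coding windows had a median ratio of -0.51, against -0.11 for the 8711 with at least 90%. The part of shared windows in these low ratios was not tested beyond this.

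Genes with a unique coding sequence were also found at this end. Snhg11, a small nucleolar RNA host gene that the authors' table lists as protein coding, had 106 and 101 footprint CPM against 1938 and 1936 mRNA CPM and a log2 ratio of -4.23 ± 0.05; its annotated open reading frame covers 4.50% of the transcript. Igip, a short secreted protein whose annotated 5′ UTR holds 48 AUG triplets, had 8.04 and 7.77 footprint CPM against 135 and 130.2 mRNA CPM (-4.05 and -4.06 in the lysates). Nrsn1, neurensin of neuronal vesicles, had 22.0 and 22.5 footprint CPM against 255 and 260.1 mRNA CPM (-3.53 and -3.53). Footprints were 18.7, 16.6 and 11.5 times fewer than mRNA. With the share of the transcript that is coding taken into account, Nrsn1 remained at -2.59 relative to the median gene, whereas Snhg11 and Igip came to -0.73 and -0.90.

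The mRNAs with the most reads did not share one ratio. Mbp, myelin basic protein, had 3255 and 3283 footprint CPM against 7179 and 7377 mRNA CPM and was under (-1.14 and -1.17 in the lysates). Snap25, the synaptic t-SNARE, had 4139.6 and 4069 footprint CPM against 4420 and 4432 mRNA CPM (-0.11), close to the median of all genes. Slc1a2, the astrocytic glutamate transporter GLT-1, lay at -0.04 and Gnas, the stimulatory G protein, at 0.54. With the coding share taken into account, Slc1a2, Snap25 and Gnas came to 1.74, 0.68 and 1.28 relative to the median gene. Of the coding windows of Gnas, 13.4% are unique.

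Gene lists were read by their medians and counts beside those of all ranked genes (median -0.14, 6.28% over, 14.2% under). Ribosomal proteins were low. Of 37 ranked cytosolic ribosomal proteins, 18 were under and 0 over, with a median of -0.91, and 2 lay above the median of all genes. Rpl8 had 228 and 236 footprint CPM against 304 and 308 mRNA CPM (-0.40), Rpl4 -0.61 and Rps3 -0.87, and Rps20 was the lowest (-2.95). Processed pseudogenes copy many of these genes, and 33 of the 37 had under 50% unique coding windows. Of 20 elongation and initiation factors and other mRNAs of the TOP class, 1 was over and 3 were under (median -0.09). With the coding share taken into account, the list median was -0.48 relative to the median gene. The 5 of these 20 genes with at least 90% unique coding windows had a raw median of 0.49, above the median of all genes. Eef1a2, the elongation factor of neurons and muscle, was the one over, with 2617 and 2584 footprint CPM against 1073 and 1112 mRNA CPM (1.25 ± 0.05, 99.9% unique), whereas the ubiquitous Eef1a1 had -0.57 with few unique windows.

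TOP mRNAs begin with a cytosine followed by a run of pyrimidines. At the annotated transcript start, a C and at least 4 further pyrimidines were found in 6 of the 37 ribosomal proteins, 3 of the 20 others and 227 of all members (2.18%, median ratio -0.02). Annotated starts can miss the true cap site, so a missing run says only that these letters are not at the annotated start. The first 20 bases of 6 of these 9 transcripts are printed with the pyrimidine run in capitals, from the lowest to the highest ratio (GENCODE M21, GRCm38), to show how widely the ratio varied among them.
Rps24 (ribosomal, log2 ratio -1.93, chr14:24487125-24496959): CTCTTTTCCTCCTCTCCagc
Rps2 (ribosomal, -1.03, chr17:24718116-24721929): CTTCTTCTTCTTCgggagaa
Rpl32 (ribosomal, -0.91, chr6:115805505-115808747): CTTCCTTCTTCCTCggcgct
Rpl4 (ribosomal, -0.61, chr9:64173375-64178666): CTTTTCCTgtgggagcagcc
Eif3f (initiation factor, -0.28, chr7:108934417-108942951): CTCTTTCTCggcaagatggc
Rack1 (ribosome scaffold, -0.11, chr11:48800332-48806434): CTTTTTCTCCacagggtcgt
All 6 lay at or below zero, and Rack1 and Eif3f have at least 94.9% unique coding windows. The transcripts not printed were Rps21 (run of 7 bases, -1.89), Rpl37 (run of 7, -0.84) and Pabpc1 (run of 12, -0.06). Run length and ratio did not follow one order over the 9. The longest run, 17 bases in Rps24, went with the lowest ratio, and the run of 12 in Pabpc1 with the highest.

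mRNAs known for regulatory upstream open reading frames were low as well: 5 of 15 were under and all but Oprm1 lay below the median of all genes (list median -0.64). Atf4, the transcription factor whose upstream frames hold it back until eIF2α is phosphorylated, had 54.5 and 54.6 footprint CPM against 145 and 148 mRNA CPM (-1.43 ± 0.02, edgeR adjusted p = 2.2e-180), and its relative Atf5 had 15.0 and 13.9 footprint CPM against 44.2 and 42.7 mRNA CPM (-1.58 ± 0.04). Ddit3, which encodes CHOP, had -1.33, Slc35a4 -1.17 and Mdm2 -1.06. Eif5 and Bace1 lay at -0.59 and -0.22, and at 0.08 and 0.81 with the coding share taken into account. Oprm1, the mu opioid receptor of dorsal horn neurons, went the other way, with 53.1 and 55.9 footprint CPM against 17.3 and 16.6 mRNA CPM (1.68 ± 0.10, edgeR adjusted p = 1.5e-104). With the coding share taken into account the list median was -0.57 relative to the median gene.

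Iron metabolism gave a wide spread. Fth1, the heavy chain of ferritin, was strongly under, with 468 and 458 footprint CPM against 2583 and 2747 mRNA CPM, 5.75 times fewer footprints (-2.52 ± 0.08). Its mRNA carries an iron-responsive element (IRE) in the 5′ UTR that binds IRP proteins when iron is low. Of other mRNAs with such elements, the iron exporter Slc40a1 had -0.20 and Epas1 -0.32. The apical loop of the element with its unpaired C was searched in the 5′ UTRs as CNNNNNCAGTG, which 889 members (8.52%) hold and which is therefore no evidence of an element by itself. It is shown for 3 listed genes that hold it, with these letters in capitals (GENCODE M21, GRCm38).
Fth1 (chr19:9980598-9985098, plus strand, first capital at base 93 of 224 of the 5′ UTR): cctgCttcaaCAGTGcttgaacggaacc
Slc40a1 (chr1:45908068-45926523, minus strand, at base 96 of 319): acttCagctaCAGTGttagctaagtttg
Epas1 (chr17:86753700-86833410, plus strand, at base 75 of 583): caatCctcggCAGTGtcctgagactgta
The same letters thus stood in a gene at -2.52 and in one at -0.20. Of the mRNAs with an IRE in the 3′ UTR, Tfrc, the transferrin receptor, had 0.53, Slc11a2 -0.22 and Cdc42bpa, which was under, -1.20.

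Selenoproteins insert selenocysteine at a UGA codon. Of 17 ranked, 3 were under and 0 over (median -0.57), and Selenow, a small redox protein, had 111 and 110.1 footprint CPM against 354 and 351 mRNA CPM (-1.67 and -1.67 in the lysates). Selenop, the plasma selenium carrier, lay at -0.96. In the polyamine pathway 3 of 8 were under, among them the antizymes Oaz1 (-1.68) and Oaz2 (-1.27), whose synthesis needs a ribosomal frameshift. Azin1, the antizyme inhibitor, lay at -0.68.

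Matrix and lysosomal proteins were high. Of 33 collagens and other matrix proteins, 18 were over and none under, and all but Agrn (-0.36) lay above the median of all genes (list median 1.14). Beside Fn1 and Col1a1 these were for example Tnc, tenascin C (2.35), Lama2, a laminin chain (2.20), Acan, aggrecan (1.80), and Col1a2 (468 and 467 footprint CPM against 145 and 146 mRNA CPM, 1.69). Of 30 lysosomal proteins, 12 were over and none under (median 0.71), with Npc1, the cholesterol exporter of lysosomes, at 1.55 and Psap, the saposin precursor, at 4406 and 4340.2 footprint CPM against 1817 and 1825 mRNA CPM (1.26). Ctsb and Lamp1 lay at 0.72 and 0.47. Of 26 chaperones, 7 were over: Hspa5, the BiP chaperone, had 881 and 902 footprint CPM against 284 and 279 mRNA CPM (1.66 ± 0.04), and Pdia3, Calr, Pdia4 and Hsp90b1, which also work in the endoplasmic reticulum, had 1.47, 1.37, 1.36 and 1.17. The other members over were Hspb1 (1.12) and Hsp90ab1 (1.02). The cytosolic co-chaperone Dnaja1 was under (-2.14, 4.89% unique).

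Large complexes and metabolic enzymes lay mostly above the median of all genes. Of 71 nuclear-encoded subunits of oxidative phosphorylation, 58 lay above the median of all genes (list median 0.32), with 2 over (Uqcrc2 at 1.11 among them) and 1 under (Cox7a2l at -2.24, 19.5% unique). Their partners encoded in the mitochondrial genome had a median of -4.07. Of 35 proteasome subunits, 30 lay above the median of all genes (0.47), yet with the coding share taken into account the list came to -0.09 relative to the median gene. All 14 glycolytic enzymes lay above it (0.69; 0.38 with the coding share), Aldoc, the aldolase of astrocytes, at 3311 and 3351 footprint CPM against 1779 and 1833 mRNA CPM (0.88) and Pfkm at 1.00. Of 30 cytoskeletal genes, 8 were over and none under (0.68). They included the spectrin Sptan1 (1740.0 and 1727 footprint CPM against 631 and 628 mRNA CPM, 1.46), dynein heavy chain Dync1h1 (1.46), Actb (1.13) and 4 beta-tubulins, while the growth-associated genes Gap43 and Basp1 and the tau gene Mapt lay at -0.64, -0.62 and -0.66. Cholesterol synthesis was at 0.31 with 2 of 20 over.

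Of 27 synaptic vesicle and release genes, 5 were over and 2 under (median 0.32). Over were Rab3a, the vesicle GTPase (153 and 158 footprint CPM against 58.8 and 64.2 mRNA CPM, 1.34), the active zone scaffold Rims1 (1.24), the vesicular GABA and glycine transporter Slc32a1 (1.17), synapsin Syn1 (1.13) and dynamin Dnm1 (1.11). Under were Cplx2, a complexin (159.5 and 154 footprint CPM against 575 and 588 mRNA CPM, -1.89), and the proton pump subunit Atp6v0c (-1.51, 7.06% unique). The small fusion proteins Vamp1 (-0.96), Vamp2 (-0.99) and Cplx1 (-0.81) lay below the median of all genes but were not called, and Vamp1 and Cplx1 turned to 1.02 and 0.65 once the coding share was taken into account. Cplx2, whose annotated transcript is 8.22% coding, turned to 0.74 in the same way.

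Of 58 ion channel genes, 5 were over (8.62%) and 10 under (17.2%), near the 6.28% and 14.2% of all ranked genes (median -0.22). Kcnk9 stood far above all others, followed by the G protein-gated channel Kcnj6 (2.14), the Kv1.1 channel Kcna1 (1.69), and the auxiliary calcium channel subunits Cacna2d3 (1.14) and Cacna2d2 (1.06). Among those under were the M-current channel Kcnq3 (32.2 and 30.4 footprint CPM against 109.5 and 105 mRNA CPM, -1.77 and -1.78 in the lysates), the background channels Kcnk3 (-1.57) and Kcnk2 (-1.31), Kcnj9 (-1.01) and the beta subunits Scn2b (-1.09), Cacnb2 (-1.19) and Cacnb3 (-1.13). Kcnk9 and Kcnk3 can form joint channels.

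Of 38 glutamate, GABA and glycine receptor genes, 4 were over and 3 under (median -0.06). Gabrb2, a GABA-A beta subunit (2.04 ± 0.15), Glra1, Grin1, the obligatory NMDA receptor subunit (1150.5 and 1133 footprint CPM against 405 and 411 mRNA CPM, 1.48), and Grm3 (1.17) were over, whereas the NMDA receptor subunits Grin2a (-1.38) and Grin2b (-1.14) and the kainate receptor subunit Grik5 (-1.51) were under. Of 23 monoamine, opioid, cannabinoid and acetylcholine receptors, 4 were over and 3 under (median 0.15). Chrna7, the alpha 7 nicotinic receptor, had 50.0 and 50.9 footprint CPM against 10.2 and 10.4 mRNA CPM (2.29 ± 0.01), and Oprm1, the delta opioid receptor Oprd1 (1.23) and the serotonin receptor Htr4 (1.28) were over, while the kappa receptor Oprk1 lay at -0.32. Adra2c (-1.36), Htr7 (-1.34) and Drd2 (-1.02) were under. Of 28 neuropeptides, granins and processing enzymes, 5 were over and none under (median 0.60): Scg2 (1061 and 1057 footprint CPM against 397 and 413 mRNA CPM, 1.39), Vgf (1.29), Scg3 (1.19), Chgb (1.15) and the convertase Pcsk1 (1.098). The peptide precursors proper were nearer to the middle, Penk at 0.82, Sst at 0.55 and Tac1, which encodes substance P, at -0.19.

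Among glial genes, 6 of 27 astrocyte genes were over and 1 under (median 0.62). Clu (2083 and 2078 footprint CPM against 702 and 730.2 mRNA CPM, 1.54), Sparcl1 (8235 and 8229 footprint CPM against 2833 and 2898 mRNA CPM, 1.52), Agt (1.51), Aldh1l1 (1.14), Apoe (1.06) and the glutamate transporter Slc1a3 (1.04) were over, and S100b was under (351 and 339 footprint CPM against 876 and 913 mRNA CPM, -1.37; 0.06 with the coding share taken into account). Of 28 oligodendrocyte and myelin genes, Enpp2, autotaxin (1.26), Mag (1.11) and Apod (1.03) were over. Mbp, Mobp (363 and 368 footprint CPM against 1467 and 1516 mRNA CPM, -2.03), Tspan2 (-1.10) and the transferrin gene Trf (-2.80, 5.04% unique) were under. Mbp and Mobp are known as mRNAs carried into the processes of oligodendrocytes. Of 22 microglial and macrophage genes 4 were over and none under (median 0.56), with Mrc1 (1.87) and Csf1r (1.27) among them, and of 17 vascular genes 4 were over, Cdh5 being the highest (1.42), and 2 under, Rgs5 being the lowest (-1.43; 0.50 with the coding share taken into account).

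Zinc finger and splicing factor genes were low. Of 179 zinc finger genes named Zfp with a number, 44 were under and 1 (Zfp382, 1.73) over, with a median of -0.63. With the coding share taken into account it was -0.59 relative to the median gene. Of 35 SR and hnRNP splicing factors, 10 were under (median -0.51), Srsf3 being the lowest (-2.96, 6.01% unique), and Srsf1 was over (1.14). Of 13 immediate early genes, such as Fos (0.73), Egr1 (0.51), Jun (0.50) and Arc (0.33), none was called in either direction (median 0.31). Of 21 chemokines, cytokines and their receptors 4 were under and none over, with Cx3cl1, fractalkine, at 0.70 and Il33 at -0.11.

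**Figure D3:**
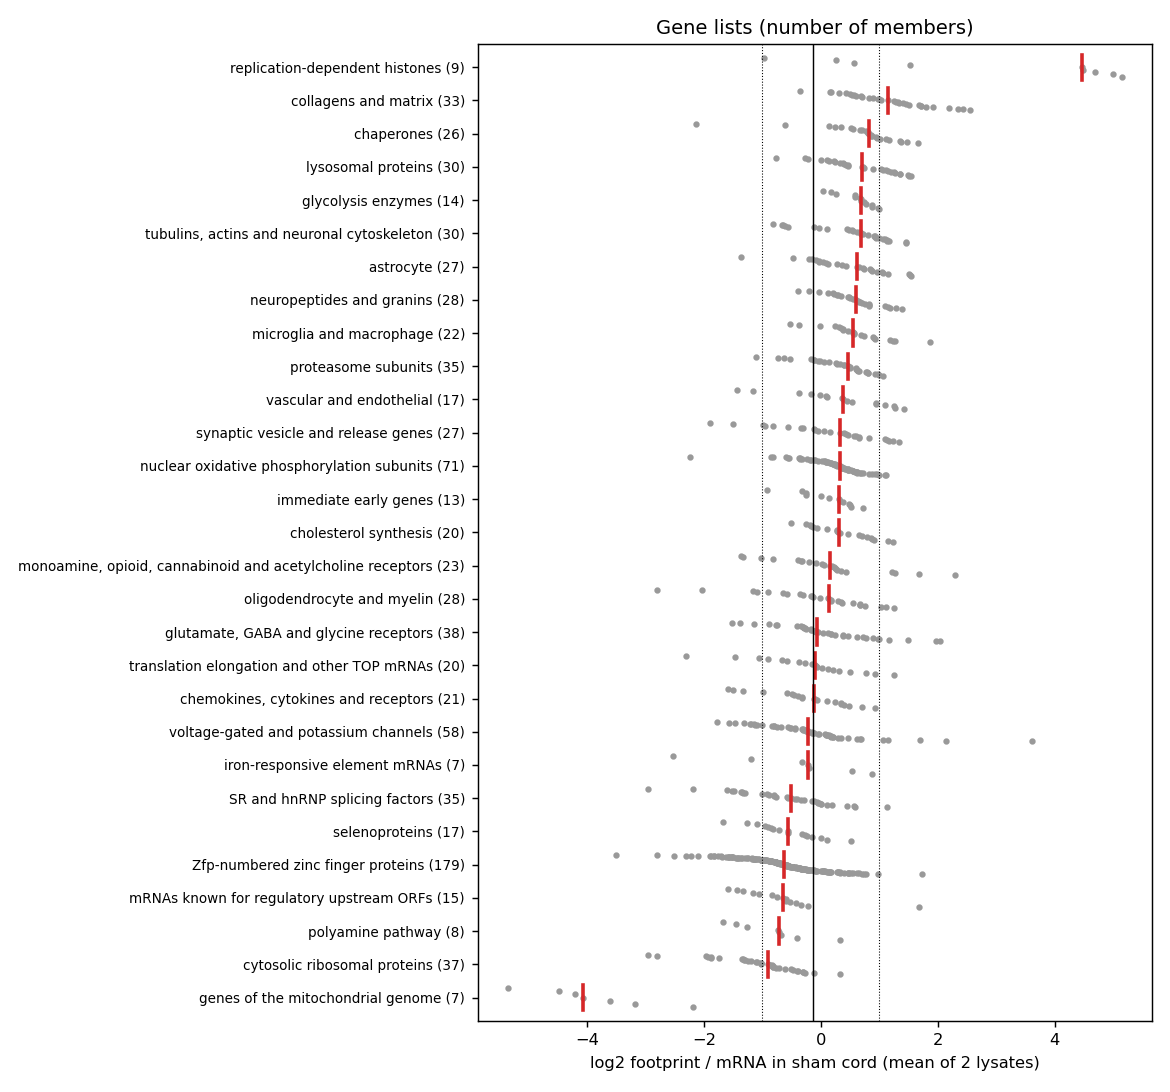
Log2 footprint over mRNA ratio of each member (points, mean of 2 lysates) of 29 gene lists, with the number ranked in brackets. Red bars are list medians, the solid line the median of all ranked genes (-0.14) and dotted lines 2-fold; the lists run from the histones (4.47) through matrix proteins (1.14) to ribosomal proteins (-0.91) and the mitochondrial genome (-4.07).

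The annotated transcript of each gene (1 GENCODE transcript, complete for 10431 members) changed along the ranking. In the highest 1044 genes the coding sequence made up a median of 69.8% of the transcript, with 2196 coding bases and a 3′ UTR of 639 bases. In the lowest 1044 it made up 33.8%, with 1113 coding bases and a 3′ UTR of 1948 bases. Across genes the Spearman correlation of the ratio was 0.39 with the coding share, 0.24 with coding length and -0.28 with 3′ UTR length. Among genes with a coding share under 20%, 357 of 813 (43.9%) were under and 8 over. Among those with 80% or more, 86 of 1342 (6.41%) were under and 210 (15.6%) over. Footprints lie in the coding sequence while mRNA fragments come from the whole transcript, and both enter the ratio. If mRNA reads fell evenly and both assays counted the same transcripts, the log2 ratio would rise by 1 for each doubling of the coding share, and it rose by 0.43. Dividing the ratio by the coding share turned the relation round, to a correlation of -0.48 with the share and 0.35 with 3′ UTR length. For some genes and lists the divided value is therefore given beside the raw one, and the others are given on the raw scale only. Where a list lies on another side of the median gene after this division, both values stand beside its name.

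AUG triplets upstream of the start codon were annotated in 39.98% of the highest 1044 genes and 63.7% of the lowest 1044. The 5027 genes without one had a median ratio of -0.02 (7.42% over, 10.9% under), the 3442 with 1 to 2 had -0.20, the 1790 with 3 to 9 had -0.32 (4.92% over, 19.3% under) and the 172 with 10 or more had -0.36. With the coding share taken into account the medians were 0.06, -0.07 and -0.10, but 0.21 for the last class, in which the order thus broke. The GC content of the 5′ UTR had a median of 62.9% in the highest and 69.9% in the lowest 1044 genes (Spearman -0.17 across genes, -0.15 with the coding share taken into account). The share of genes with a pyrimidine start was 2.21% and 1.73%. Among the 8711 genes with at least 90% unique coding windows the same features ran in the same direction, with 40.4% of the highest and 68.1% of the lowest 10% of genes holding an upstream AUG.

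**Figure D4:**
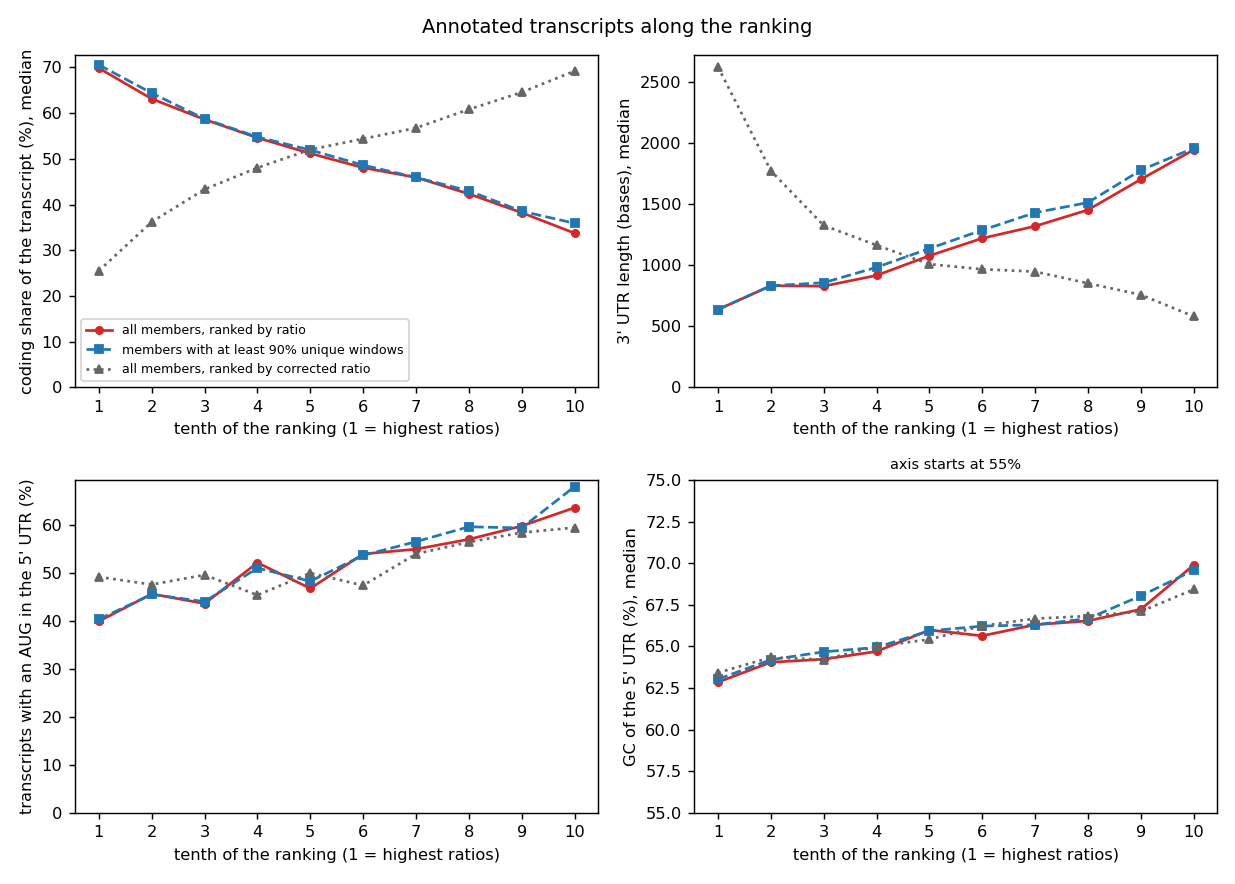
Annotated features in 10 equal groups of genes from the highest to the lowest ratios: coding share, 3′ UTR length, share with an AUG in the 5′ UTR and GC of the 5′ UTR (this axis starts at 55%). Circles are all members, squares those with at least 90% unique windows and triangles all members ranked after division by the coding share, for which coding share and 3′ UTR length turn round while GC keeps its direction.

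Because the ends of the ranking were chosen by their ratio in sham cord, they were tested in libraries not used for it. Of the highest 200 genes, 188 had enough reads in SNI cord and all 188 were over there (median 1.73), against 5.98% of all genes tested in SNI cord. Of the lowest 200, 188 had enough reads and all 188 were under (median -2.27), against 13.3%. In sham DRG, a tissue of sensory neuron cell bodies and their glia with no cord neurons, 145 of 152 testable high genes (95.4%) were over, against 7.94% of all genes, and 179 of 181 low genes (98.9%) were under, against 15.9%. None was called in the opposite direction in either. Across all members that could be compared, the Pearson correlation of the ratio was 0.989 between sham cord and SNI cord (9974 genes) and 0.917 between sham cord and sham DRG (9741 genes). Zfand1 stood apart from the first relation, with 0.24 and 0.69 in sham cord against 2.87 and 3.46 in SNI cord, at 77 and 147 footprint reads against 247 and 191 mRNA reads in sham cord and 18.5% unique coding windows; this gene was singled out after its values were seen.

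The difference between sham cord and sham DRG was tested as an interaction of tissue and assay, a test added after the data had been seen. Of 9741 genes, 52 (0.534%) had a ratio at least 2-fold higher in cord than in DRG and 56 (0.575%) at least 2-fold lower. Adamts15 had 2.96 and 3.20 in cord against -0.09 and -0.26 in DRG (difference 3.28, edgeR adjusted p = 3.7e-173). The anion exchanger Slc4a3 had -0.64 and -0.54 against -3.41 and -2.96. The next 4 genes, also higher in cord, were chosen after their values were seen. The potassium chloride cotransporter Slc12a5, which sets the chloride gradient of mature neurons, had 0.88 and 0.89 against -0.76 and -0.98 (edgeR adjusted p = 8.9e-44), the sodium channel Scn2a 0.15 and 0.20 against -1.75 and -1.49, Slc1a2 -0.05 and -0.02 against -1.39 and -1.73, and Sox9, a transcription factor of astrocytes in the cord, 0.76 and 0.69 against -0.84 and -0.78. Of 25 astrocyte genes testable in both tissues 3 were higher in cord and none lower, against 0 of 27 glutamate, GABA and glycine receptors, 0 of 20 neuropeptide genes and 0 of 24 synaptic genes higher (1 synaptic gene was lower). The 4 astrocyte markers summed to 4539 and 4431 mRNA CPM in cord against 95.4 and 91.3 in DRG. In bulk tissue, fewer cells of a type and less RNA per cell cannot be told apart. The ratio is already set against mRNA, and whether cell numbers bear on these differences was not tested.

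Lower in cord were Tpbg, a trophoblast glycoprotein (0.64 and 0.65 in cord against 5.32 and 5.41 in DRG), Zfand1 (4.98 and 4.94 in DRG), Ankrd60 (-2.52 and -1.22 in cord against 1.18 and 1.76 in DRG), Usp12, a deubiquitinase (-1.43 and -1.44 against 1.73 and 1.77), Gapdh (0.02 and 0.07 against 2.53 and 2.56), the guidance ligand Slit3 (0.61 and 0.60 against 2.40 and 2.37), Gatm of creatine synthesis (-0.66 and -0.57 against 1.14 and 1.16) and the motor protein Kif5a (-0.83 against 0.72). The coding sequences of Gapdh and Zfand1 are 0% and 18.5% unique, and the lysates of Ankrd60 differed by more in sham cord than those of any other gene named here. Of the gene lists, the histones had a median of 4.47 in cord (9 genes) against 1.74 in DRG (8 genes). Of these 8, 3 were higher in cord, and the median difference of cord minus DRG over the 8 was only 0.94. Astrocyte genes had 0.62 in cord (27 genes) against -0.06 in DRG (25 genes), with a median difference of 0.47 over the 25. Oxidative phosphorylation subunits had 0.32 against -0.13 with none of 71 called different, ribosomal proteins -0.91 against -1.32 with 1 of 37 called, and the upstream frame list -0.64 against -1.07 with none of 14 called. Collagens and matrix genes had 1.14 against 1.20, and lysosomal proteins 0.71 against 0.68. The ratios are scaled within each tissue, so a shift of all genes of a tissue would not be seen.

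**Figure D5:**
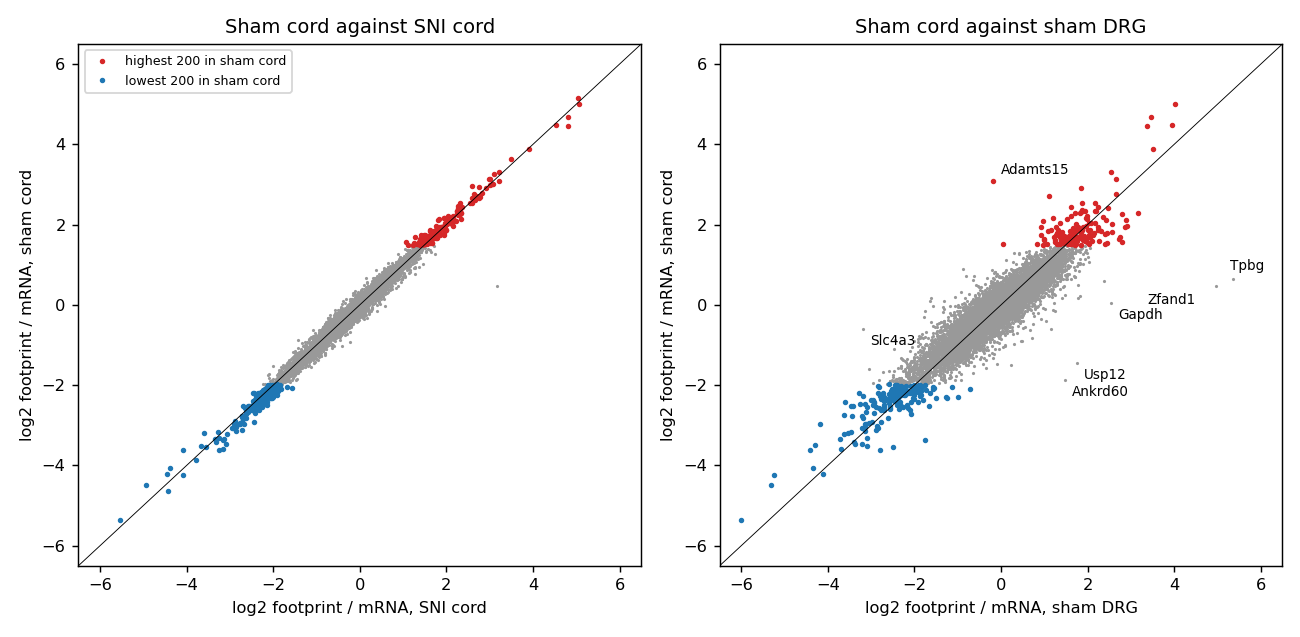
Log2 footprint over mRNA ratio in sham cord (vertical) against SNI cord (left, 9974 genes) and sham DRG (right, 9741 genes), each the mean of 2 lysates, with the line of equality. Red and blue points are the highest and lowest 200 genes of sham cord, of which all testable ones are over and under in SNI cord; named points are genes whose ratio differed between cord and DRG.

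The read minimum cut through genes of unlike ratios. Just inside it were Pecr and Harbi1, with footprint reads exactly at the minimum (0.79 and 0.25), and Pcdhgb2 and Atp2a1, with 129 and 130 mRNA reads (2.92 and 2.08). Just outside were Thsd7b and Cwc22, each 1 footprint read short of it (0.50 and 0.18), and Pcdhga10 and Pon3, with 127 and 126 mRNA reads (3.27 and 1.91).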

How the data were processed

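Footprint and poly(A) mRNA libraries came from the same lysates, each a pool of 10 mice. Raw read counts per gene, deposited by the authors, were made with HTSeq from STAR 2.5.2b alignments to GRCm38.p5, after a Bowtie 1.1.2 step that took out rRNA and tRNA (version, feature and strand setting are not given in the sources used here). The authors also deposited RPKM values and the footprint over mRNA ratio of each lysate (translational efficiency), which were not used for results, since counts allow a test.

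Counts were scaled to the column sums, with 0.5 reads added for the ratio of each lysate. Genes of any type with the read minimum in both assays (10563) were tested with edgeR 4.0.16 (R 4.3.3; quasi-likelihood F test, Benjamini-Hochberg adjustment over all of them), with the lysate as a block because the study split each lysate. Across genes, footprint and mRNA deviations of the same lysate had a correlation of -0.03. A call needed an adjusted p under 0.05 and a fitted ratio of at least 2-fold. On simulated counts (10190 genes, sham cord) all 50 genes at 4-fold, 50 at 2.5-fold, 34 at 0.25-fold and 38 at 0.4-fold were called, and 0 of 10018 unchanged genes. The simulation had equal ratios for most genes and no lysate effect, so it checks the procedure and not the calls made here. The footprint libraries differed by a mean chi-square per gene of 1.09 and the mRNA libraries by 1.79, more than sampling noise, so all were counted as separate samples. Transcript features came from 1 GENCODE M21 transcript per gene. A coding window was unique when its 30 bases occurred in no other annotated gene. The coding-share correction subtracts the log2 coding share and then the median over genes. Alternatives were TMM factors, DESeq2 1.42.0, other filters, no block, each lysate left out, 5 reads added, and the coding share.

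Named were the 15 highest and lowest genes, the 15 highest and lowest with at least 2000 mRNA reads, the 10 with the most mRNA reads, in each of 29 lists the highest, lowest and 3 most abundant, and those nearest the read minimum. Other called list members and the genes that differ most between cord and DRG were chosen after their values were seen. The members and lists were chosen with earlier results of these data known. Some genes that this rule names are not reported here.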

Additional observations from a re-analysis of the deposited data

Results flagged for a closer look

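The named genes below had a footprint over mRNA ratio that differed by at least 2-fold between sham cord and sham DRG in the interaction test of edgeR, at an adjusted p under 0.05 over 9741 genes. Values are log2 ratios of cord minus DRG. Higher in cord were the histones Hist1h4h (1.22), Hist2h4 (1.103) and Hist1h1c (1.46), and among transporters, pumps and channels Slc12a5 (1.79), Scn2a (1.76), Slc1a2 (1.57), Slc4a3 (2.51) and Atp2a1 (1.096). The others higher in cord were Adamts15 (3.28), Hs6st3 (1.58), Sox9 (1.53), Arpc1a (1.72), Pcgf1 (1.60), Diablo (1.56), Selenow (1.07), mt-Nd6 (1.07) and Snhg11 (1.03). Lower in cord, the differences past 2 on the log2 scale were Tpbg (-4.72), Zfand1 (-4.47), Ankrd60 (-3.33), Usp12 (-3.19) and Gapdh (-2.50). The remaining genes lower in cord were Slit3 (-1.78), Pstpip2 (-1.60), Igsf10 (-1.62), Gatm (-1.76), Kif5a (-1.55), Atp6v0c (-1.72) and Nrsn1 (-1.004).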

How the results depend on the processing

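The lysate pairing changed little: with no replicate block 655 genes were over and 1475 under, against 656 and 1478 with it, and no count of calls moved by over 1.5 times. Leaving out each lysate gave rank correlations of 0.385 to 0.391 for coding share and -0.166 for GC of the 5′ UTR. With a lysate left out, no spread between sham cord pools remained, so counts of calls are not given for it. A count moved past 1.5 times only where fewer or more genes were tested or the scale changed. With 1 read in each assay as the minimum, 995 genes were over and 2745 under (16210 tested), and with the minimum sum required of every single library 849 were under (7813 tested), 102 of the lowest 200 in SNI cord (of 102 tested) and 78 in sham DRG (of 80 tested). With the coding share taken into account 1066 genes were over, and 125 of the highest 200 (187 tested) were over in SNI cord. On that scale 107 of the highest 200 (151 tested) were over in sham DRG. Of the lowest 200, 126 (187 tested) were under in SNI cord and 126 (180 tested) in sham DRG. The rank correlation with coding share then reversed to -0.475 and that with 3′ UTR length to 0.352, while those with upstream AUGs and GC kept their sign (-0.078 and -0.147). Of 198 named genes 31 then changed sign, 28 of them not called. The called ones were S100b, Rgs5 and Cplx2 (0.061, 0.50 and 0.74). Zero stands for the median gene on the corrected scale, but for equal library shares on the raw scale, where the median is -0.14. With that stricter minimum the correlations were 0.409 (coding share), -0.300 (3′ UTR) and -0.171 (GC), and with at least 90% unique windows, a choice made after seeing the data, -0.167 (upstream AUGs) and -0.162 (GC). The difference between cord and DRG gave 52 and 56 calls, and 55 and 50 with TMM. Genes with few footprints are limited by depth: lysates differed by a median of 0.16 in the 25% of genes with the fewest footprint reads.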
